A study of Mus musculus with 6 samples.

Results

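Repressive chromatin in mouse embryonic stem (ES) cells is built by the Polycomb complexes, by HP1 proteins and by corepressor complexes that remove active histone marks, and the results below concern 42 genes that encode those proteins. The members were chosen by name, and a probe set was taken for a member where the platform annotation gave it that member's symbol and no other. Probe sets were found for 41 of the 42 genes, out of 18194 genes with a symbol of their own on the array. These 41 genes had 110 of the 45101 probe sets; 104 were tested and 6 lay below the filter on low values. Suv39h1 was matched by no such probe set and was not analysed here.

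The cells were 1 undifferentiated ES cell line, named 27H or 27H10 in the labels, that lacks Dicer (Dicer -/-), the enzyme that cuts microRNA precursors to their mature form. Every sample carried this deletion, the controls included. The control group held 3 arrays of cells that received siRL, a small interfering RNA against Renilla luciferase. The other group held 3 arrays of the same line given mimics of the miR-290 cluster, and both were collected 24 h after transfection. Intensities are linear values of Affymetrix arrays hybridised with biotinylated cRNA. The labels do not say whether replicates were separate cultures, so p-values measure the spread between these arrays, which may be technical.

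Polycomb repressive complex 2 (PRC2) methylates histone H3 at lysine 27, and Polycomb repressive complex 1 (PRC1) ubiquitinates histone H2A and compacts chromatin. In ES cells these complexes hold developmental genes at low expression. HP1 proteins bind methylated lysine 9 of histone H3, which several methyltransferases deposit, and the KRAB zinc finger system recruits such enzymes to transposons and imprinted loci.

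The transfected mimics belong to a cluster whose 3p arms have similar seeds, the stretch by which a microRNA pairs with its targets. The sequences below, from RefSeq with the GRCm38.p6 build, show how far these seeds are shared. They lie on the plus strand of chromosome 7 between positions 3218674 and 3220837, and capitals mark bases 2 to 8. The labels do not list which members or arms were in the mix, so the sequences describe the cluster and not the mix. Mature miR-292a-3p is named only.
mmu-miR-291a-3p: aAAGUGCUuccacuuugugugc
mmu-miR-294-3p: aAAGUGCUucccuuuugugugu
mmu-miR-295-3p: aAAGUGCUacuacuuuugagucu
mmu-miR-290a-3p: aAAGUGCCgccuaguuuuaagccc
mmu-miR-291b-3p: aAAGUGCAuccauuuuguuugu
mmu-miR-293-3p: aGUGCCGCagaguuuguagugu
Of these 6 forms, 5 carry AAGUGC at bases 2 to 7, and 3 of those share the whole seed AAGUGCU. The form miR-293-3p has a different seed. Target sites in the members were not examined.

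Across the members, changes were small and ran in both directions. By each gene's brightest probe set, the log2 fold change of mimic over control arrays ran from -0.54 to 1.22 with a median of -0.03, against a median of -0.01 over all 13815 genes tested. The median size of the change was 0.17 on the log2 scale, against 0.21 for all genes. Negative values were found for 23 genes and positive ones for 18. After median centring of the arrays the value was negative for 17 and positive for 24, as Ezh1, Ezh2, Mtf2, Kdm1a, Ehmt2 and Suv39h2 turned. By the brightest probe set, only Cbx3, which is dim, differed by more than 1.5-fold.

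Tests were made with limma, with Benjamini-Hochberg adjusted p under 0.05 as the threshold. With a constant prior variance, the same for all probe sets, 0 of 41 members passed, while 1.83% of all genes tested did (1.38% lower and 0.456% higher). None of the 104 member probe sets passed either, against 1.29% of all tested probe sets. At an unadjusted p under 0.05, 15 members stood out (36.6%), 9 lower and 6 higher, against 24.5% of all genes. With limma's robust prior that follows the signal level, called the level-dependent prior from here on, 11 members passed (26.8%), against 15.6% of all genes. Of these, 7 were lower (17.1%, background 9.43%) and 4 higher (9.76%, background 6.2%). By probe set, 18 of 104 passed (17.3%), against 11.3%.

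The members were mostly bright genes, with a median log2 level of 10.7 against 8.53 for all genes tested, and 35 of the 41 lay above that median. The spread between replicates shrank with level, from a median SD of 0.701 among the dimmest to 0.0762 among the brightest of 4 equal groups of probe sets, on the log2 scale. Among the 35 bright members 10 passed with the level-dependent prior (28.6%), close to the 24.1% of all genes above the median level. The 3 control arrays did not overlap the 3 mimic arrays for 19 members (46.3%), against 35.5% of all genes. After median centring of the arrays, the level-dependent prior gave 5 lower and 7 higher members in place of 7 and 4, and 1423 lower and 1762 higher probe sets overall in place of 1914 and 1379. Centring moved the median log2 fold change of all probe sets from -0.01 to 0.04.

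**Figure D1:**
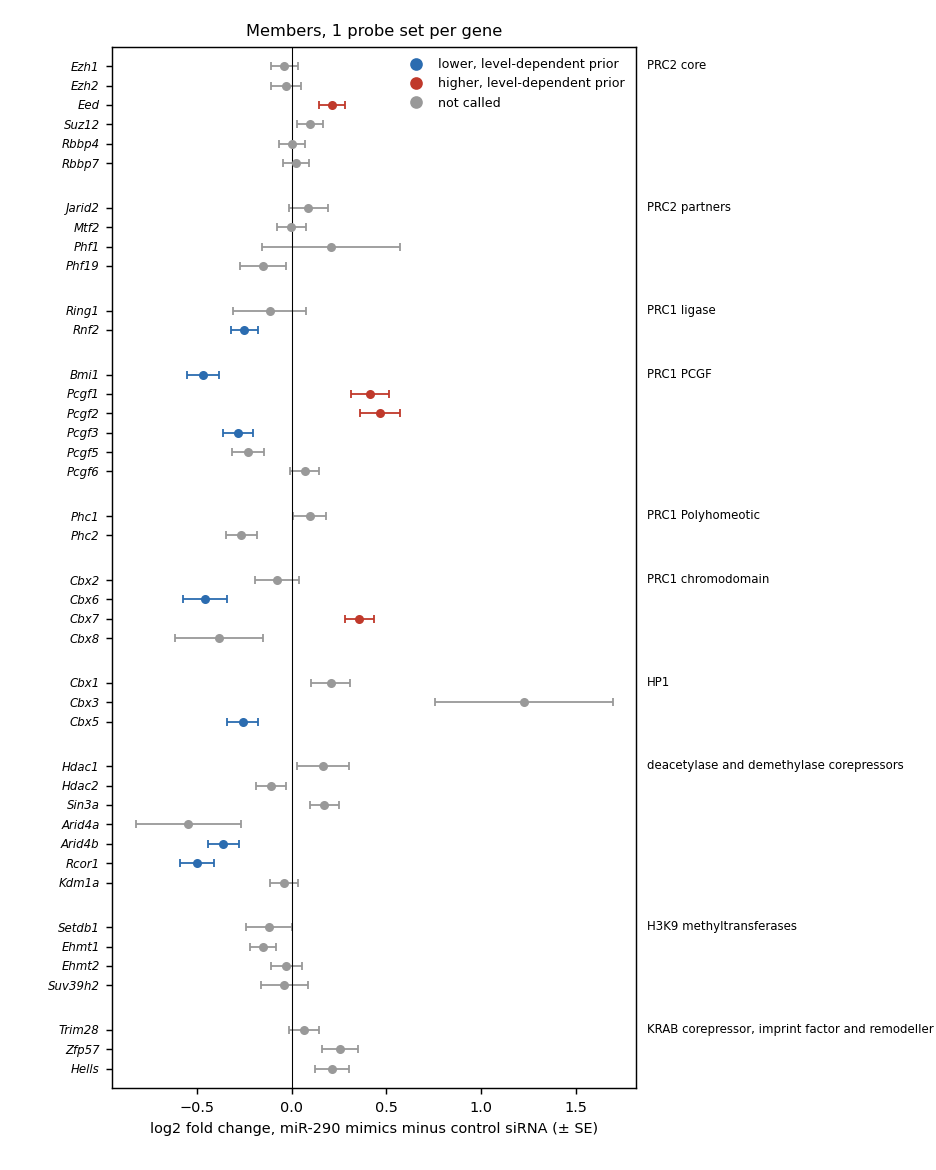
Log2 fold change (x axis, mimics minus control, ± standard error, 3 arrays against 3) of the brightest probe set of each member, grouped by role. Blue points were lower and red points higher with the level-dependent prior (7 and 4 genes), grey points did not pass, and most members lie within 0.5 of 0.

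**Figure D2:**
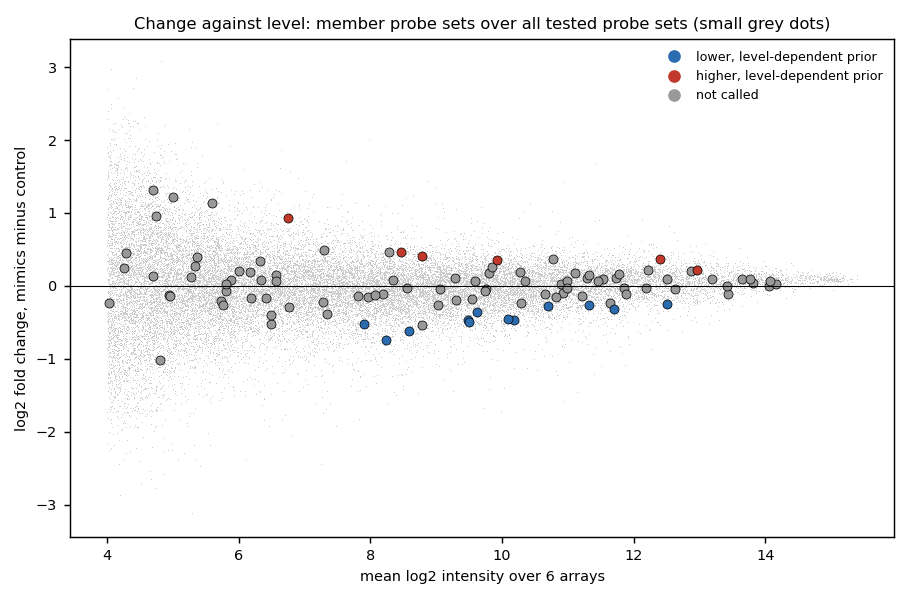
Log2 fold change (y axis) against mean log2 intensity over the 6 arrays (x axis) for the 104 member probe sets (large points) and all tested probe sets (small dots). The cloud narrows as the level rises, and the called member probe sets, in blue and red, mostly have changes under 0.6 at high levels.

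Of the 6 genes of the PRC2 core, Eed was higher with the level-dependent prior and the others did not pass by their brightest probe sets. Ezh2, the main H3 lysine 27 methyltransferase of ES cells, had a mean intensity of 4699 ± 112 in control and 4613 ± 284 in mimic arrays (SD, n = 3 each). Its log2 fold change was -0.03 with a 95% interval of -0.23 to 0.17. Ezh1, the second catalytic subunit, had a log2 fold change of -0.04 (interval -0.22 to 0.14). Suz12, which holds the complex together, had one of 0.10 (interval -0.07 to 0.27). The dimmer probe sets of Ezh1 had -0.17, 0.12 and -1.02, and those of Suz12 0.10, 0.10, -0.18, 0.11 and -0.53, none of them called. All mimic arrays were below all controls for Suz12 probe set 1420020_at (-0.53). They were above all controls for 1420021_s_at (the brightest), 1452364_at and 1420022_s_at.

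Eed encodes the subunit that binds trimethylated lysine 27 and stimulates the enzyme. Its brightest probe set (1448653_at) read 7544, 7290 and 7363 on the control arrays and 8577, 8339 and 8808 on the mimic arrays. Every mimic array was above every control array. The means were 7399 ± 131 and 8575 ± 235 (SD, n = 3 each), a log2 fold change of 0.21 ± 0.067 (SE). It passed with the level-dependent prior of limma (adjusted p = 0.0115) and not with the constant prior (0.173). With the level-dependent prior it also passed without any single array, narrowly without mimic replicate 1 (0.0205 to 0.04998).

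The histone-binding subunits Rbbp4 and Rbbp7, which PRC2 shares with deacetylase complexes, had log2 fold changes of 0.00 and 0.02 by their brightest probe sets. A dim second probe set of Rbbp4 (1456260_at) differed. It read 89.0, 68.8 and 76.4 on the control arrays and 131, 136 and 182 on the mimic arrays. The groups did not overlap there, and the log2 fold change of 0.93 passed with the level-dependent prior (limma, adjusted p = 0.0157), though not without mimic replicate 3 (0.0719). The bright Rbbp4 probe set (1434892_x_at), at a mean of 17099 ± 434 in control and 17111 ± 502 in mimic arrays, showed no such difference. Its suffix marks probes that may also bind other transcripts. The Rbbp4 probe sets 1454875_a_at and 1454791_a_at had -0.03 and 0.37, neither of them called. The mean over the probe sets of Rbbp4 was 0.32.

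Of the 4 PRC2 partners, which guide the complex to its sites, 0 passed with either prior (limma). By their brightest probe sets 0 had an unadjusted p under 0.05. Jarid2, which helps recruit PRC2 in ES cells, had a log2 fold change of 0.09, and Mtf2, a Polycomb-like protein that binds CpG-rich DNA, one of 0.00. For Jarid2, 1422697_s_at had -0.11 and 1450710_at 0.10, each without overlap of the groups. For Mtf2, 1418515_at had -0.23, also without overlap (limma, level-dependent prior, adjusted p = 0.0691). The other tested Mtf2 probe sets had 0.06, 0.02 and 0.39, and none was called. Phf19 had -0.15. Phf1, also Polycomb-like, was dim at 42.04, 59.2 and 84.7 on the control arrays and 91.6, 46.9 and 75.8 on the mimic arrays. These groups overlapped, and its log2 fold change of 0.21 had a wide interval of -0.71 to 1.12.

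Of the 14 PRC1 members tested, 7 were called with the level-dependent prior, beside 15.6% of all genes and 24.1% of those above the median level. Whether PRC1 differs from the other members was not tested. Its ubiquitin ligase is Rnf2 (RING1B), the form most used in ES cells, or its relative Ring1. Rnf2 (1424873_at) read 6365, 6017 and 6595 on the control arrays and 5407, 5277 and 5289 on the mimic arrays. All 3 mimic arrays were below all controls. The means were 6326 ± 291 and 5324 ± 71.6 (SD, n = 3 each), a log2 fold change of -0.25 ± 0.072 (SE), with an adjusted p of 0.00902 with the level-dependent and 0.150 with the constant prior of limma. Its second probe set (1451519_at) had a log2 fold change of -0.32 and also passed with the level-dependent prior (0.0156), but not without control replicate 3 (0.0706), mimic replicate 1 (0.0606) or mimic replicate 2 (0.0581). Ring1, much less precisely measured, had -0.11 with an interval of -0.60 to 0.37.

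Each PRC1 complex holds 1 of 6 PCGF proteins, and the choice defines the form of the complex. Of the 6 genes, 2 were lower and 2 higher with the level-dependent prior. Bmi1 (PCGF4) and Pcgf2 (MEL18) define the canonical complexes that carry a CBX and a Polyhomeotic protein, while Pcgf1, Pcgf3, Pcgf5 and Pcgf6 define the variant ones.

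Bmi1 (1417493_at) read 1354, 1366 and 1370 on the control arrays and 1078, 933 and 954 on the mimic arrays. The groups were well apart, with means of 1363 ± 8.57 and 988 ± 78.5 (SD, n = 3 each). The log2 fold change was -0.47 ± 0.085 (SE), with an adjusted p of 0.00245 with the level-dependent prior and 0.0716 with the constant prior of limma, the lowest constant-prior value among the brightest probe sets of the members. A second probe set (1448733_at) had -0.62 and also passed with the level-dependent prior (0.0312). That second call was lost without control replicate 1 (0.0935) or 3 (0.122) and without mimic replicate 1 (0.103) or 2 (0.103).

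Pcgf2, the close relative of Bmi1, went the other way. It read 286, 287 and 330 on the control arrays (1420645_at) and 443, 378 and 428 on the mimic arrays. The groups did not overlap, and the means were 301 ± 24.98 and 417 ± 34.0 (SD, n = 3 each), a log2 fold change of 0.47 ± 0.105 (SE). It was higher with the level-dependent prior of limma (adjusted p = 0.0244; constant prior 0.0971). The call was lost without control replicate 1 (0.0817) or 2 (0.0625) and without mimic replicate 1 (0.0992) or 3 (0.0750).

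Among the variant-complex genes, Pcgf1, whose complex includes the demethylase KDM2B and binds CpG islands, was the higher one. It read 400, 378 and 363 on the control arrays (1427956_at) and 454, 538 and 529 on the mimic arrays, with every mimic array above every control. The means were 380 ± 18.8 and 507 ± 45.9 (SD, n = 3 each), a log2 fold change of 0.41 ± 0.099 (SE), and the adjusted p was 0.0282 with the level-dependent and 0.108 with the constant prior of limma. With 1 array left out the call held only without mimic replicate 1 (0.0308), and the adjusted p was between 0.0511 and 0.0965 without each of the other 5 arrays.

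Pcgf3 (1428423_at) was lower. It read 1777, 1856 and 1881 on the control arrays and 1610, 1490 and 1437 on the mimic arrays, again without overlap. The means were 1838 ± 54.1 and 1512 ± 88.7 (SD, n = 3 each), and the log2 fold change of -0.28 ± 0.079 (SE) had an adjusted p of 0.0187 with the level-dependent and 0.140 with the constant prior of limma. This call was lost without control replicate 3 (0.0701), mimic replicate 2 (0.0544) or mimic replicate 3 (0.0690), and after median centring (0.0583).

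Pcgf5, a relative of Pcgf3, had its brightest probe set (1429564_at) at 1398, 1436 and 1253 on the control arrays and 1160, 1178 and 1142 on the mimic arrays. These groups did not overlap, but the log2 fold change of -0.23 did not pass (limma, level-dependent prior, adjusted p = 0.0679). A dimmer probe set (1434666_at) read 451, 353 and 378 against 188, 221 and 305, also without overlap. Its log2 fold change of -0.75 ± 0.21 (SE) passed with that prior (0.0173), but not without control replicate 1 (0.0787), mimic replicate 1 (0.0663) or mimic replicate 2 (0.0574). Pcgf6, which pairs with MGA and E2F6 to silence germline genes, had 0.07 (0.552) by its brightest probe set. Its dimmer probe sets 1454120_a_at and 1432108_at had 0.46 (0.0632) and 0.49 (0.259), neither of them called. For 1454120_a_at the groups did not overlap, and it passed after median centring (0.0341). The mean over the probe sets of Pcgf6 was 0.34.

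**Figure D3:**
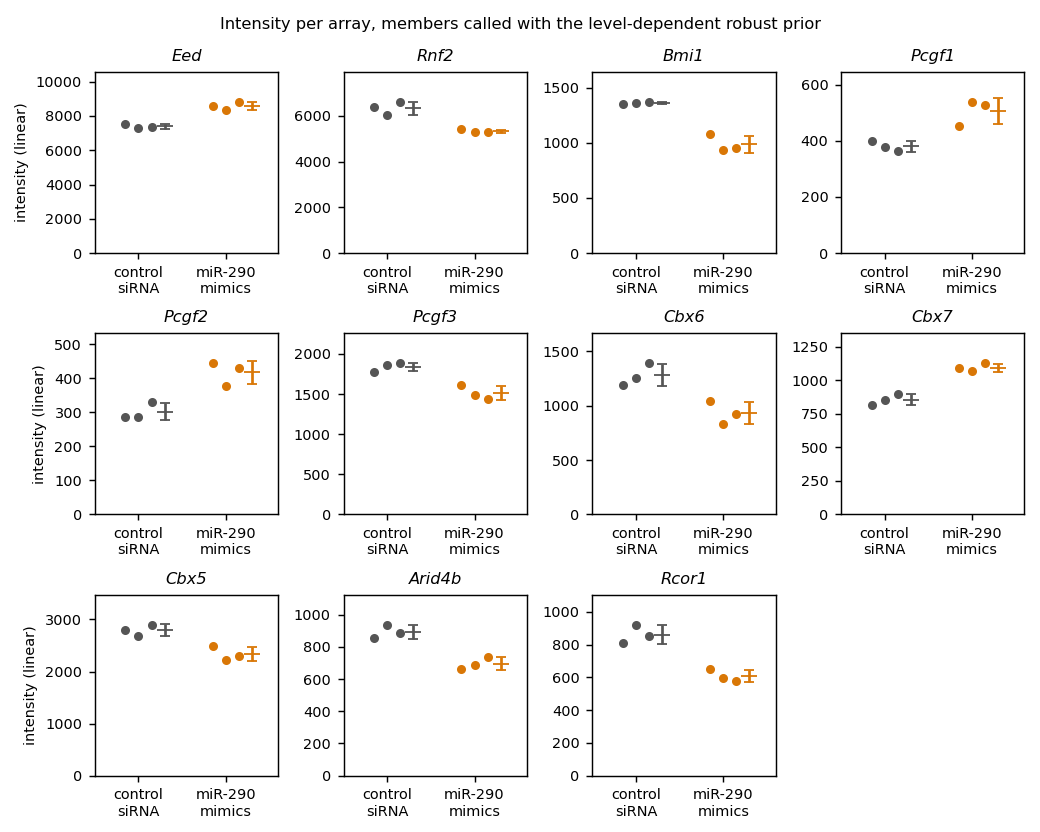
Intensity on each of the 6 arrays (points; y axis linear, from 0, a separate scale for each gene) of the 11 members that passed with the level-dependent prior, control arrays on the left and mimic arrays on the right of each panel. Bars are mean ± SD (n = 3 each); in all 11 panels the groups do not overlap.

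Polyhomeotic proteins link PRC1 complexes to each other, and neither member was called. Phc1 had a log2 fold change of 0.10. Phc2 (1437239_x_at) read 547, 567 and 594 on the control arrays and 473, 502 and 447 on the mimic arrays. All mimic arrays were lower, yet the log2 fold change of -0.26 had an adjusted p of 0.0987 with the level-dependent prior of limma. The suffix of 1437239_x_at marks probes that may also bind other transcripts. The other Phc2 probe set (1416048_at) had -0.03 with overlapping groups (0.898 with that prior). 

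The CBX chromodomain proteins of canonical PRC1 read trimethylated lysine 27. Of 4 genes, Cbx6 was lower and Cbx7, the main CBX protein of undifferentiated ES cells, was higher with the level-dependent prior. Cbx6 (1424407_s_at) read 1192, 1258 and 1390 on the control arrays and 1042, 835 and 925 on the mimic arrays. The groups did not overlap, with means of 1280 ± 101 and 934 ± 104 (SD, n = 3 each). The log2 fold change was -0.46 ± 0.117 (SE), with adjusted p 0.0089 with the level-dependent and 0.121 with the constant prior of limma.

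Its second probe set (1429290_at) gave nearly the same size, -0.47 ± 0.074 (SE), from 841 ± 41.8 to 607 ± 12.6 (SD, n = 3 each). That probe set had the lowest constant-prior value of all member probe sets (adjusted p = 0.0601). When the probe sets of each gene were averaged, Cbx6 was the 1 member to pass with limma's constant prior (log2 fold change -0.46, adjusted p = 0.0403).

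Cbx7 (1433557_at) read 816, 851 and 898 on the control arrays and 1091, 1067 and 1126 on the mimic arrays. Every mimic array was above every control, and the means were 855 ± 41.3 and 1095 ± 29.6 (SD, n = 3 each). The log2 fold change was 0.36 ± 0.074 (SE), with adjusted p 0.00963 with the level-dependent and 0.0859 with the constant prior of limma. The remaining genes did not pass, with a log2 fold change of -0.08 for Cbx2 (interval -0.37 to 0.21) and -0.38 for the dimmer Cbx8 (interval -0.97 to 0.20).

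In PRC1, related subunits were called in opposite directions, and 3 pairs of them are described here. The called PCGF genes could also be paired in other ways. They were picked for this after their values were seen and are described without a test. Phc1 and Phc2 also had values of opposite sign, neither of them called. Some other related pairs had values of 1 sign, such as Rnf2 and Ring1 or Pcgf3 and Pcgf5, as given above. The log2 ratio of the Pcgf2 to the Bmi1 signal was -2.24, -2.25 and -2.05 on the control arrays and -1.28, -1.30 and -1.15 on the mimic arrays, a shift of 0.94. The ratio of Cbx7 to Cbx6 was -0.55, -0.56 and -0.63 on the control arrays and 0.07, 0.35 and 0.28 on the mimic arrays, a shift of 0.82. For Pcgf1 over Pcgf3 the ratio was -2.15, -2.30 and -2.37 against -1.82, -1.47 and -1.44, a shift of 0.70. That the groups are apart for each pair follows from this choice. Signals of different probe sets are not on a common scale, so only the shift between groups can be read, not which gene was more abundant.

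Of the 3 HP1 genes, Cbx5 and Cbx1 gave mixed readings between their probe sets. Cbx5 (HP1 alpha) had its brightest probe set (1454636_at) at 2806, 2686 and 2898 on the control arrays and 2493, 2227 and 2302 on the mimic arrays. The mimic arrays were all lower, from a mean of 2797 ± 107 to 2341 ± 137 (SD, n = 3 each). The log2 fold change of -0.26 ± 0.080 (SE) passed with the level-dependent prior of limma (adjusted p = 0.0213; constant prior 0.170). Its other probe sets had 0.07, 0.07, -0.30 and 0.44, none of them called, and the mean over the gene's probe sets was 0.01. The call was lost without control replicate 1 (0.0669) or 3 (0.0849), without mimic replicate 2 (0.0745) or 3 (0.0649), and after median centring (0.0587).

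Cbx1 (HP1 beta) did not pass by its brightest probe set (1433718_a_at), with a log2 fold change of 0.21 (adjusted p = 0.0857, level-dependent prior of limma). A second one (1436266_x_at) read 4936, 4650 and 4732 on the control arrays and 6331, 6455 and 5783 on the mimic arrays. These groups were far apart, and the log2 fold change of 0.37 ± 0.079 (SE) passed with that prior (0.00153). The suffix of this probe set marks probes that may also bind other transcripts. The dimmer Cbx1 probe sets 1422935_x_at, 1431773_at and 1450797_a_at had -0.13, -0.22 and 0.06, none of them called. For 1431773_at all mimic arrays were below all controls. The mean over the probe sets of Cbx1 was 0.06.

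Cbx3 (HP1 gamma) was represented by 1 dim probe set (1432628_at) with a single symbol, at 16.6, 31.4 and 17.6 on the control arrays and 73.8, 59.2 and 26.7 on the mimic arrays. The groups overlapped. The log2 fold change of 1.22, the highest among the brightest probe sets of the members, had an interval of 0.04 to 2.41 and did not pass (adjusted p = 0.161 with the level-dependent prior of limma).

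**Figure D4:**
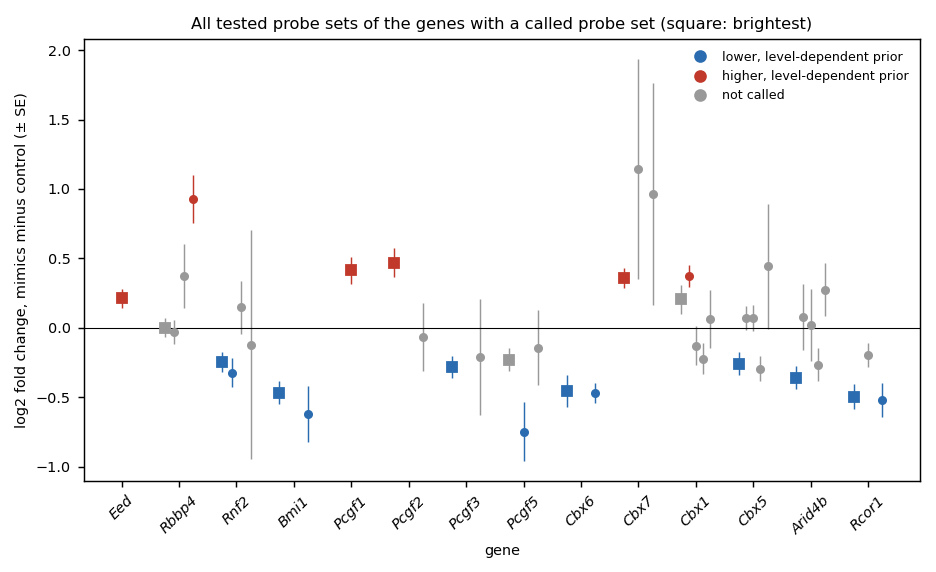
Log2 fold change (y axis, mimics minus control, ± standard error) of every tested probe set of the 14 members with at least 1 called probe set (x axis); squares mark the brightest one. Rnf2, Bmi1, Cbx6 and Rcor1 each have more than 1 called (blue) probe set, all on the lower side, while the probe sets of Cbx5 lie on both sides of 0.

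Over all probe sets, 14 members had at least 1 called with the level-dependent prior, 11 of them by the brightest and 3 (Rbbp4, Pcgf5 and Cbx1) by another only. At least 2 called probe sets were found for 4 genes, Rnf2, Bmi1, Cbx6 and Rcor1, each time in 1 direction. Uncalled probe sets of some called members had other values, such as 0.15 and -0.12 for Rnf2, -0.07 for Pcgf2, -0.21 for Pcgf3, and 0.08, 0.02, -0.27 and 0.27 for Arid4b. For Cbx7 they were 1.14 and 0.96, both dim.

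Among the 7 corepressor genes, which serve the Sin3 and CoREST histone deacetylase complexes, 2 were lower and 0 higher with the level-dependent prior. Rcor1 (CoREST1) is the scaffold that joins the demethylase LSD1 to HDAC1 and HDAC2. It read 807, 921 and 851 on the control arrays (1434336_s_at) and 651, 598 and 576 on the mimic arrays. The groups did not overlap, and the means were 860 ± 57.7 and 609 ± 38.6 (SD, n = 3 each). The log2 fold change was -0.50 ± 0.091 (SE), with adjusted p 0.00425 with the level-dependent and 0.0724 with the constant prior of limma. A second probe set (1454932_at) had -0.52 and passed with the level-dependent prior (0.0346), while the third had -0.20 and did not. The call of the second was lost after median centring (0.0514). It was also lost without each array except mimic replicate 1, with an adjusted p of 0.0748 to 0.108.

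Arid4b, a DNA-binding subunit of the Sin3 complex, was the other lower gene. It read 854, 937 and 886 on the control arrays (1435768_at) and 663, 685 and 739 on the mimic arrays, without overlap. The means were 892 ± 42.2 and 696 ± 38.6 (SD, n = 3 each), a log2 fold change of -0.36 ± 0.082 (SE), with adjusted p 0.0160 with the level-dependent and 0.0994 with the constant prior of limma. The call was lost without control replicate 2 (0.0514) and without mimic replicate 1 (0.0697).

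Its relative Arid4a had a log2 fold change of -0.54, the most negative among the brightest probe sets of the members, but read 672, 375 and 603 on the control arrays and 290, 406 and 417 on the mimic arrays. These overlapped, and it did not pass (adjusted p = 0.152 with the level-dependent prior of limma). Its 2 dimmer probe sets had 0.09 and 1.32 and did not pass either, and the mean over the gene's probe sets was 0.29, of the opposite sign. The log2 fold change was -0.04 for the demethylase gene Kdm1a (LSD1), and 0.17 and -0.11 for the deacetylase genes Hdac1 and Hdac2. The scaffold gene Sin3a had 0.17 (1449343_s_at), with every mimic array above every control (limma, level-dependent prior, adjusted p = 0.102). Its other probe sets had 0.19, also without overlap, and 0.18, with overlap. None of these 4 genes passed.

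For the H3 lysine 9 methyltransferases, 0 of 4 genes passed with either prior (limma). With the constant prior, 0 had an unadjusted p under 0.05. All 4 values were negative as deposited, and those of Ehmt2 and Suv39h2 turned positive after median centring. Ehmt1 (GLP), which works with Ehmt2 (G9a) on dimethylation, read 1855, 1967 and 1907 on the control arrays and 1730, 1773 and 1658 on the mimic arrays. The groups did not overlap, but the log2 fold change of -0.15 did not pass. With the level-dependent prior of limma its unadjusted p was 0.0317 and its adjusted p 0.153. Ehmt2 had -0.03, Setdb1, which acts with TRIM28 at retrotransposons, -0.12, and Suv39h2, an enzyme of pericentric heterochromatin, -0.04.

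Of the genes around KRAB repression and heterochromatin remodelling, 0 of 3 passed with either prior (limma). With the constant prior, 1 had an unadjusted p under 0.05. This was Zfp57, a zinc finger protein that protects imprinted methylation. It read 781, 840 and 907 on the control arrays and 1036, 936 and 1047 on the mimic arrays. The groups did not overlap, and the log2 fold change of 0.26 had an adjusted p of 0.0768 with the level-dependent prior. Hells (LSH), a remodeller needed for DNA methylation, had 0.21 (0.0546), and Trim28 (KAP1), the corepressor that KRAB zinc fingers recruit, had 0.07 (0.473). With the level-dependent prior of limma the unadjusted p was 0.00644 for Hells and 0.0109 for Zfp57. After median centring the level-dependent prior also called Zfp57 (0.0444), Hells (0.0225) and Cbx1 (0.0322), all higher.

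Of the 11 called members, 6 passed with the level-dependent prior without any single array: Eed, Rnf2, Bmi1, Cbx6, Cbx7 and Rcor1. After median centring 9 of the 11 passed. Over the settings run with limma's constant prior, members passed in only 2 cases. These were the averaged probe sets of Cbx6 and a stricter filter at a mean log2 of 6, which called 7 of the 11 (Bmi1, Cbx6, Arid4b and Rcor1 lower, and Pcgf1, Pcgf2 and Cbx7 higher).

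Further subunits of the same complexes were listed to set the members in context, 67 genes of which 58 could be matched to a probe set of their own. With the constant prior of limma 2 of these were lower and 0 higher, and with the level-dependent prior 9 were lower and 3 higher (20.7%, beside the 15.6% of all genes). After median centring the latter counts were 5 lower and 5 higher. The median log2 fold change was -0.02. The 2 constant-prior calls were Phc3, the third Polyhomeotic gene, and Lcor.

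Phc3 (1455312_at) read 423, 474 and 424 on the control arrays and 220, 253 and 243 on the mimic arrays. The groups were far apart, with means of 440 ± 28.9 and 239 ± 16.6 (SD, n = 3 each) and a log2 fold change of -0.88 ± 0.093 (SE, adjusted p = 0.0386). The difference from Phc1 and Phc2, whose values are given above, was not tested. Lcor, whose locus also encodes a PRC2 partner called PALI1, read 2265, 1906 and 2594 on the control arrays (1443779_s_at) and 1171, 1061 and 1179 on the mimic arrays. Its groups did not overlap, and its log2 fold change was -0.98 ± 0.135 (SE, adjusted p = 0.0487). Both calls were lost with the constant prior after median centring and without any 1 of the 6 arrays; with the level-dependent prior both passed in each of those cases.

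With the level-dependent prior of limma, 3 more genes of PRC1 passed. With Phc3 these were 4 of the 13 further PRC1 genes tested (30.8%). Of all genes 15.6% passed, and of those above the median level 24.1%. Yaf2, a variant PRC1 subunit, had a log2 fold change of -0.61 (adjusted p = 0.00210) and Auts2, of the Pcgf3 and Pcgf5 complexes, -0.43 (0.0388). Wdr5, part of the Pcgf6 complex and also of activating methyltransferases, had 0.30 (0.00713). In PRC2, Epop, an ES cell partner of the complex, had 0.50 (0.00035; 2522 ± 144 to 3555 ± 58.5, SD, n = 3 each), and Aebp2, which belongs to the Jarid2 form, had -0.17 (0.0483). The Auts2 call was lost after median centring (0.0556) and without each array except mimic replicate 3 (0.0622 to 0.142). The Aebp2 call was lost after centring (0.233) and without any 1 of the 6 arrays (0.0639 to 0.160). Another Aebp2 probe set (1437743_at) had -0.36 and passed with that prior (0.0159), also after centring (0.0402). It did not pass without control replicate 1 (0.0600), control replicate 2 (0.0514) or mimic replicate 3 (0.0558). The uncalled Aebp2 probe sets had -0.16, 0.11 and 0.03.

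In the CoREST list 3 of 6 genes had a negative and 3 a positive log2 fold change, and 2 were called, both lower. Rcor3, a relative of Rcor1, had a log2 fold change of -0.65 (adjusted p = 0.00426 with the level-dependent prior of limma), and Zmym2, a zinc finger protein of the LSD1 complex, had -0.38 (0.0033). Rcor2, another relative of Rcor1, had 0.24 with all mimic arrays above all controls, and did not pass (0.104). In the Sin3 group Sin3b had -0.23 (0.0290). In the NuRD deacetylase complex Mta3 had -0.30 (0.0219) and Mbd3, needed for NuRD assembly, 0.31 (0.01997). The calls of Sin3b (0.123) and Mta3 (0.0679) were lost after median centring. Without control replicate 2, mimic replicate 1 or mimic replicate 3, the adjusted p was 0.0785, 0.114 and 0.102 for Sin3b and 0.0646, 0.0651 and 0.0727 for Mta3. Sin3b also lost its call without control replicate 3 (0.0816). Mbd3 lost its call without control replicate 1 (0.0790) or 3 (0.0668) and without mimic replicate 1 (0.0778) or 2 (0.0748). The subunits listed for H2A deubiquitination, NCoR, H3 lysine 9 and H4 lysine 20 repression had 0 calls with either prior. With the constant prior of limma, 0 of these genes had an unadjusted p under 0.05. Control and mimic arrays did not overlap for 4 of 4 NCoR genes, 2 of them negative and 2 positive. This was so for 24 of the 58 subunits (41.4%), against 35.5% of all genes.

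**Figure D5:**
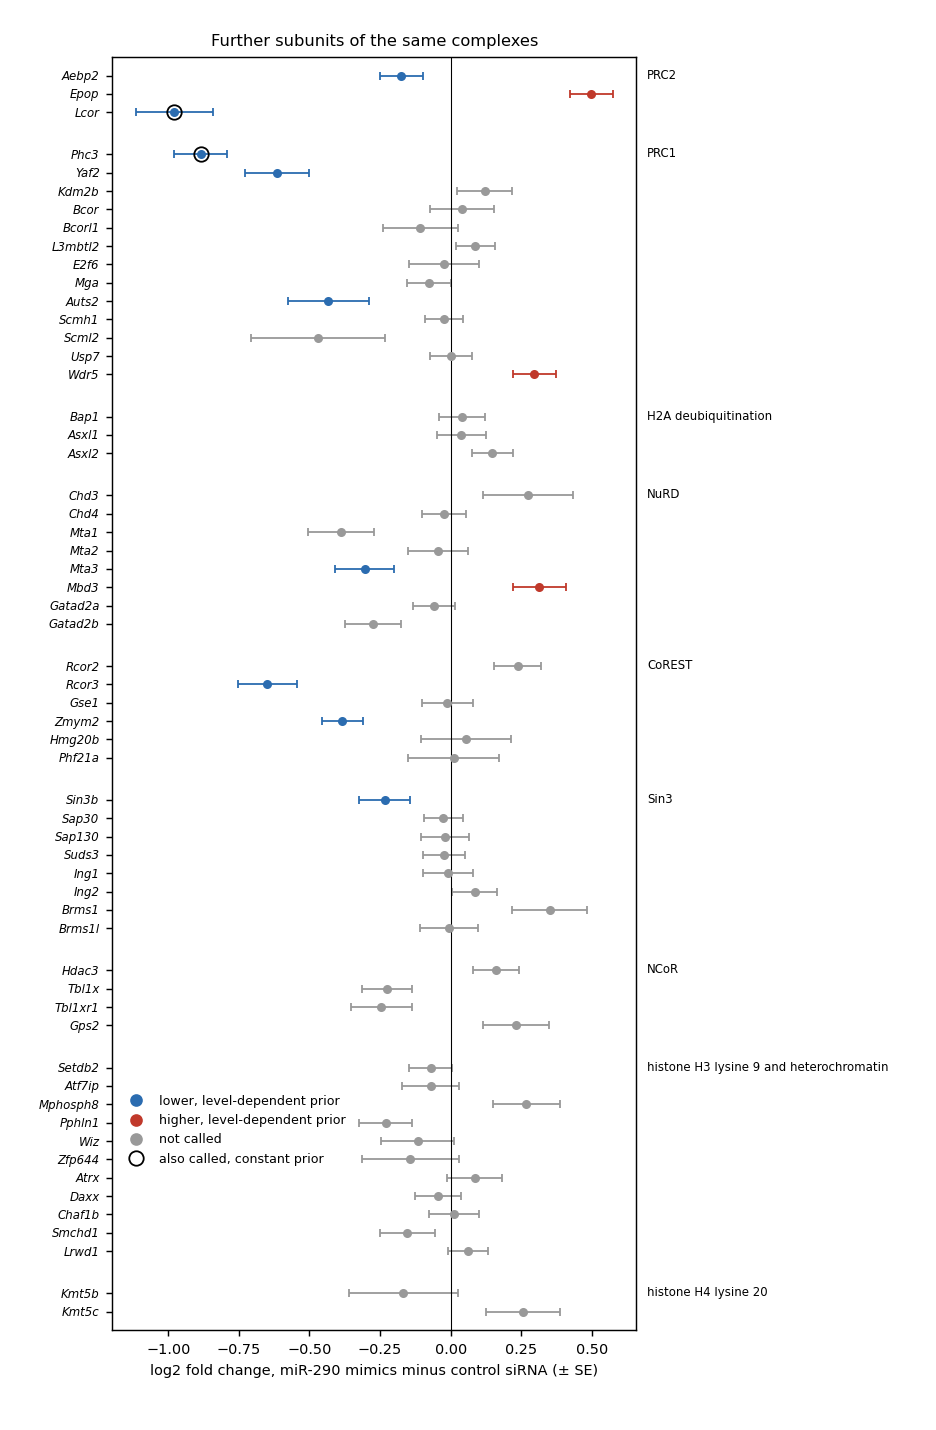
Log2 fold change (x axis, mimics minus control, ± standard error, 3 arrays against 3) of the brightest probe set of 58 further subunits, grouped by complex. Blue and red points passed with the level-dependent prior (9 lower, 3 higher), and the open circles mark Lcor and Phc3, the 2 that also passed with the constant prior.

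Array medians lay between 41.7 and 44.9, all 6 arrays carry 1 analysis date, and the correlation of log2 values was at least 0.963 within a group and at most 0.964 between groups. The summed signal of 6 ES cell markers (Pou5f1, Nanog, Sox2, Zfp42, Dppa5a and Esrrb) was 85160 to 93216 on control and 90106 to 95530 on mimic arrays; 0 of them passed with limma's constant prior and 1 was higher with the level-dependent prior. The 6 feeder fibroblast markers summed to 316 to 343 on control and 236 to 314 on mimic arrays, none was at 0, and the 3 collagen genes among them reached at most 32.2 on any array. The 5 primitive endoderm markers summed to 129 to 201 and 232 to 253, with 0 called by either prior. The 4 trophectoderm markers, of which Cdx2 lay below the filter and Krt8 and Krt18 were lower, summed to 3705 to 4086 on control and 2496 to 2613 on mimic arrays. The 4 neural markers summed to 1345 to 1510 and 1532 to 1809, and 1 was lower and 1 higher with the constant prior. None of the marker genes in these lists was at 0, and their part in the members' values was not tested. In such bulk samples fewer cells of a type and less RNA per cell cannot be told apart.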

How the data were processed

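Each of the 6 Affymetrix arrays has 1 linear intensity for each probe set, as deposited by the authors. GCRMA is the tool named in the submitters' processing notes, but GCRMA normally writes log2 values. These intensities have, on each array, a mean of 500 without the lowest and highest 2%, as the global scaling of MAS 5.0 gives, and which tool made them is not settled. They were log2-transformed with no offset. Detection calls were not used, so dim values cannot be told from background, and no build is named for the array.

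Control probe sets (64) and those with a mean log2 intensity under 4 (15870) were left out, leaving 29167. Differences were fitted with limma 3.58.1 in R 4.3.3 on all 6 arrays without covariates (eBayes, constant prior, 2-sided) and adjusted by the Benjamini-Hochberg method over all tested probe sets; the level-dependent prior (trend and robust) and the other settings are alternatives. Counts by gene use the brightest probe set with 1 symbol in the platform annotation. Values on every array are given for members called on any probe set, for those with an unadjusted p under 0.05 whose groups do not overlap, and for 1 member of each role; further subunits are named where called. The number of arrays limits the precision. Fits were tested on simulated data.

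The members and lists were chosen with earlier results of these data known. Replicate numbers come from the sample titles and were used to pair samples only where a replicate block is named.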

Additional observations from a re-analysis of the deposited data

How the results depend on the processing

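Unless another setting is named, values use limma's constant prior, with 376 probe sets, 0 member probe sets, 0 member genes and 2 further subunits called. In the same order, the level-dependent prior called 3293, 18, 11 and 12, a filter at a mean log2 of 6 called 2373, 11, 7 and 7, and an offset of 16 called 628, 0, 0 and 4. Median centring called 153, 0, 0 and 0, quantile normalization 323, 0, 0 and 1, and no filter 0, 0, 0 and 0 (5645 probe sets at an unadjusted p under 0.05). With all probe sets of a gene averaged, 1 member was called, and the log2 fold changes of 7 members changed sign. Among these were Cbx5, a called one (-0.26 to 0.0054), Arid4a (-0.54 to 0.29), Ehmt2 (-0.03 to 0.16), Hdac2 (-0.11 to 0.01), Suz12 (0.10 to -0.05) and Cbx2 (-0.08 to 0.03). Leaving out 1 array at a time gave 0 to 1 probe sets and 0 members and subunits with the constant prior. With the level-dependent prior it gave 1971 to 2844 probe sets, 12 to 15 member probe sets, 7 to 9 members and 7 to 11 subunits.

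Another scaling, offset or filter together with the level-dependent prior was chosen after seeing the data. These gave 3185, 19, 12 and 10 (median centring), 3216, 19, 12 and 12 (quantile), 3454, 19, 12 and 13 (offset), 3894, 22, 13 and 17 (filter at 6) and 2861, 18, 11 and 11 (no filter). The cause of these moves was not tested. Same-numbered arrays did not deviate together (correlations -0.01 to 0.02). With 3 arrays per group this cannot settle whether the numbers pair samples. A replicate block called 0, 0, 0 and 0 with the constant prior (5189 probe sets at an unadjusted p under 0.05) and 3558, 20, 12 and 16 with the level-dependent prior, and all 11 members called without the block were among its 12. Dim probe sets limit what can be seen, since the spread between replicates there exceeds most members' changes.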
